A study of Mus musculus with 4 samples.

Results

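Of the 10 genes described here, all but Nfat5 belong to the calcium branch of T cell receptor signalling. The set holds the NFAT family transcription factors Nfatc1, Nfatc2, Nfatc3 and Nfat5 and the calcineurin subunits Ppp3ca, Ppp3cb, Ppp3cc and Ppp3r1. The calcineurin inhibitors Rcan1 and Cabin1 complete it. All 10 genes were taken by name out of the 19892 genes that could be named on the array. Their probes were those whose RefSeq transcript accession belongs to these symbols. They had 14 probes in all, 1 spot each. Nfatc1, Nfatc2, Nfatc3 and Cabin1 had 2 probes and the other 6 members had 1.

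RNA of CD4 T cells, the helper lymphocytes, from lymph nodes of male mice aged 7 weeks was hybridised to 4 single-colour Agilent arrays. The groups were wildtype unstimulated, wildtype stimulated for 6 h, Med23 knockout unstimulated and Med23 knockout stimulated for 6 h, with 1 array each. Med23 is a subunit of Mediator, which links transcription factors to RNA polymerase II, and the series asks which genes induced through the T cell receptor need it. The labels and design text do not state how Med23 was deleted, which agent engaged the receptor, or whether animals were pooled.

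When the T cell receptor is engaged, calcium enters the cell and binds calmodulin, which activates the phosphatase calcineurin. Calcineurin is a pair of a catalytic A subunit and a regulatory B subunit. It removes phosphates from the NFAT factors Nfatc1, Nfatc2 and Nfatc3, which then move into the nucleus and, often together with AP-1, switch on cytokine genes. In T cells Nfatc2 is known as a factor present before activation, and Nfatc1 as one whose short isoform is itself induced by NFAT. Regulation by phosphate is not visible to an expression array, which reads only the amount of RNA.

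Levels are log2 signals relative to the 75th percentile of the same array, so a level is compared between arrays for 1 probe and never between probes. Signals below a floor of log2 -5.01 were set to the floor. With 1 array per group there is no replicate check and no test, and calls of higher or lower rest on size alone, with the limit at 2-fold (log2 1). The SD of a log2 difference between repeated spots of 1 probe, from probes with 10 spots, serves as a yardstick. It rests on 104 probes at levels above 1, on 64 between -1 and 1, on 42 between -3 and -1 and on 141 between the floor and -3. In the wildtype stimulation comparison it was 0.10, 0.17, 0.42 and 0.44 in these bins. This spot SD covers noise within arrays. The spread between mice or cultures was not measured.

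Facts on the arrays bear on every value below. All 10 CD4 T cell markers, Cd4 and the CD3 chains among them, lay above the floor on each array, with a summed level of 9.08 to 9.58. Their median stimulation difference was -0.66 for wildtype, where Il7r, Cd4, Cd3g and Lck were 2-fold lower and 0 were higher. The labelled knockout pair had a median of -0.56, with Cd4 and Cd3g 2-fold lower and Zap70 2-fold higher. Medians over all genes were -0.02 and 0.05. The part of these marker shifts in the member values was not tested. The stimulated wildtype array stood apart: it was the brightest, with a 75th percentile of 680.8 in raw signal against 243.7 to 332.6. On it 12 of 12 neutrophil and myeloid markers lay above the floor with a summed level of 8.06, against 6 to 8 of 12 and 1.51 to 1.78 on the other arrays, where S100a8 and Ltf were at the floor. Likewise 7 of 8 red cell markers lay above the floor with a summed level of 7.28, against 3 or 4 of 8 and -0.27 to -0.10. B cell markers had summed levels of 0.11 to 1.35, the highest in the unstimulated array labelled knockout, with Ebf1 at the floor on every array. The pair of CD8 markers had summed levels of -2.33 to -0.43, higher on both unstimulated arrays. The single Med23 probe differed by -0.07 between the unstimulated genotypes and by -1.54 between the stimulated ones, so the unstimulated pair goes against its label and the arrays are called labelled knockout. Whether that probe lies in the deleted part is not known.

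After stimulation the NFAT factors differed in opposite directions. Nfatc1 RNA was higher and Nfatc2 and Nfatc3 RNA was lower, in both genotypes on at least 1 probe past 2-fold, and the catalytic subunit gene Ppp3ca was lower in both. The other calcineurin subunits, both inhibitors and Nfat5 stayed within 2-fold. No member reached 2-fold between the genotypes, with or without stimulation. By the mean over each gene's probes, 1 of 10 members was 2-fold higher in wildtype after stimulation and 3 were lower, against 14.2% and 12.8% of 14616 measured genes. In the arrays labelled knockout 1 was higher and 2 were lower, against 13.5% and 13.8% of 14226 genes. With 10 members, counts of 1 to 3 are close to these background shares. The members' median difference was -0.13 in wildtype cells and -0.11 in the arrays labelled knockout, beside -0.02 and 0.05 over all genes. In bulk RNA, fewer cells of a type and less RNA per cell cannot be told apart.

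**Figure D1:**
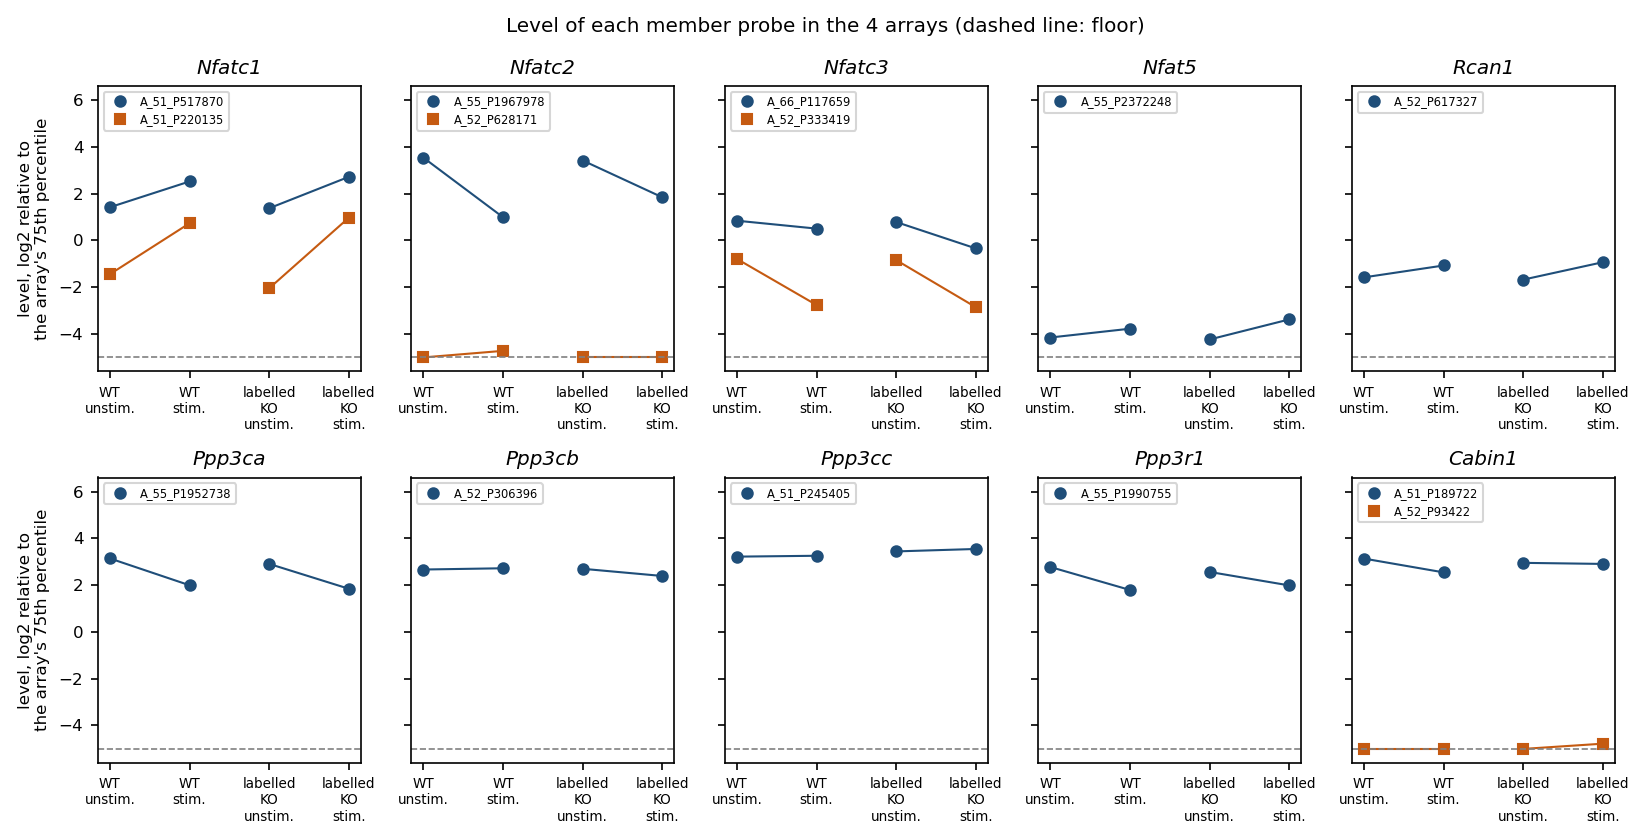
Level of each member probe (y axis, log2 relative to the array's 75th percentile) in the 4 arrays (x axis, 1 array per point), with lines joining the unstimulated and stimulated array of a genotype and a dashed line at the floor of -5.01. Both Nfatc1 probes run up and the brighter Nfatc2 probe and both Nfatc3 probes run down in each genotype. Heights of different probes are not comparable.

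Nfatc1, the factor known to amplify its own transcription in activated T cells, was read by probes that the array assigns to different transcripts. The probe A_51_P220135 had levels of -1.45 in the unstimulated and 0.73 in the stimulated wildtype array, and of -2.05 and 0.97 in the arrays labelled knockout. In each genotype the stimulated array had the higher level. The difference was 4.53-fold in wildtype (log2 2.18) and 8.12-fold in the arrays labelled knockout (log2 3.02), both more than 12 times the spot SD. Of all probes measured in these comparisons, 3.46% and 0.908% had a more positive difference.

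The second Nfatc1 probe, A_51_P517870, gave the same order with smaller steps. Its levels were 1.41 and 2.52 in wildtype and 1.37 and 2.72 in the arrays labelled knockout. That is 2.15-fold in wildtype (log2 1.10) and 2.54-fold in the arrays labelled knockout (log2 1.34), and the wildtype value was 0.85 when arrays were scaled to their median. The probes disagreed on size by more than the spot SD of either. They are annotated to different Nfatc1 transcripts (A_51_P220135 to NM_016791 and A_51_P517870 to NM_198429), and which isoforms each detects was not tested. Averaged over both, Nfatc1 was 3.12-fold higher in wildtype and 4.54-fold higher in the arrays labelled knockout. It was the 1 member that passed 2-fold upward, and it did so under all 9 other settings tried, over a log2 range of 1.10 to 1.66 in wildtype and 1.34 to 2.22 in the arrays labelled knockout.

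Nfatc2, the factor that resting T cells are known to hold ready in the cytoplasm, went the other way. Its bright probe A_55_P1967978 had levels of 3.54 and 0.99 in wildtype and of 3.41 and 1.84 in the arrays labelled knockout. The unstimulated arrays were thus both high and close together, and the lowest level was that of stimulated wildtype cells. The probe was 5.86-fold lower after stimulation in wildtype (log2 -2.55) and 2.98-fold lower in the arrays labelled knockout (log2 -1.58). In wildtype 0.865% of the measured probes had a more negative difference, and 6.2% in the arrays labelled knockout. The other probe, A_52_P628171, lay at the floor in 3 arrays and at -4.73 in the stimulated wildtype array, so it carries almost no signal. Averaging it in gives gene values of -1.13 and -0.79, of which the second is under 2-fold, and on the bright probe alone Nfatc2 was past 2-fold in both genotypes.

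Nfatc3, known as the NFAT factor of thymocytes and also present in mature T cells, was lower after stimulation on both of its probes, which carry the same transcript accession. The probe A_52_P333419 had levels of -0.80 and -2.77 in wildtype and of -0.85 and -2.86 in the arrays labelled knockout. These values are nearly the same in the genotypes, with differences of -1.97 (3.92-fold) and -2.02 (4.04-fold). The probe A_66_P117659 had levels of 0.84 and 0.50 in wildtype and of 0.78 and -0.35 in the arrays labelled knockout. Its difference was -0.34 in wildtype, or -1.96 spot SDs, and -1.13 in the arrays labelled knockout. Both Nfatc3 probes were lower in each genotype, and in wildtype only A_52_P333419 passed 2-fold. The raw wildtype signal of A_66_P117659 was 481.1 and 962.8, so its wildtype direction comes from the scaling, and that of A_52_P333419 was 155.1 and 99.98, lower before scaling too. Their mean was -1.16 in wildtype cells and -1.57 in the arrays labelled knockout, and the wildtype value was -0.34 with the brightest probe alone and -0.96 under a floor raised to the 60th percentile.

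Nfat5 is the outlying family member: it lacks the calcineurin docking region and is known for the response to high salt. Its 1 probe was dim, with levels of -4.16 and -3.78 in wildtype and -4.24 and -3.38 in the arrays labelled knockout. Stimulated arrays were the higher ones in each genotype, by 0.38 and 0.86, or 0.86 and 1.85 times the spot SD at that level. A difference as small as the wildtype one was not detectable at this signal strength. The wildtype value was -0.45 with the pseudocount, where the median of all genes was -0.67. The value of the arrays labelled knockout was 0.56 to 0.90 in the 7 other settings that measured the gene, under 2-fold in each.

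**Figure D2:**
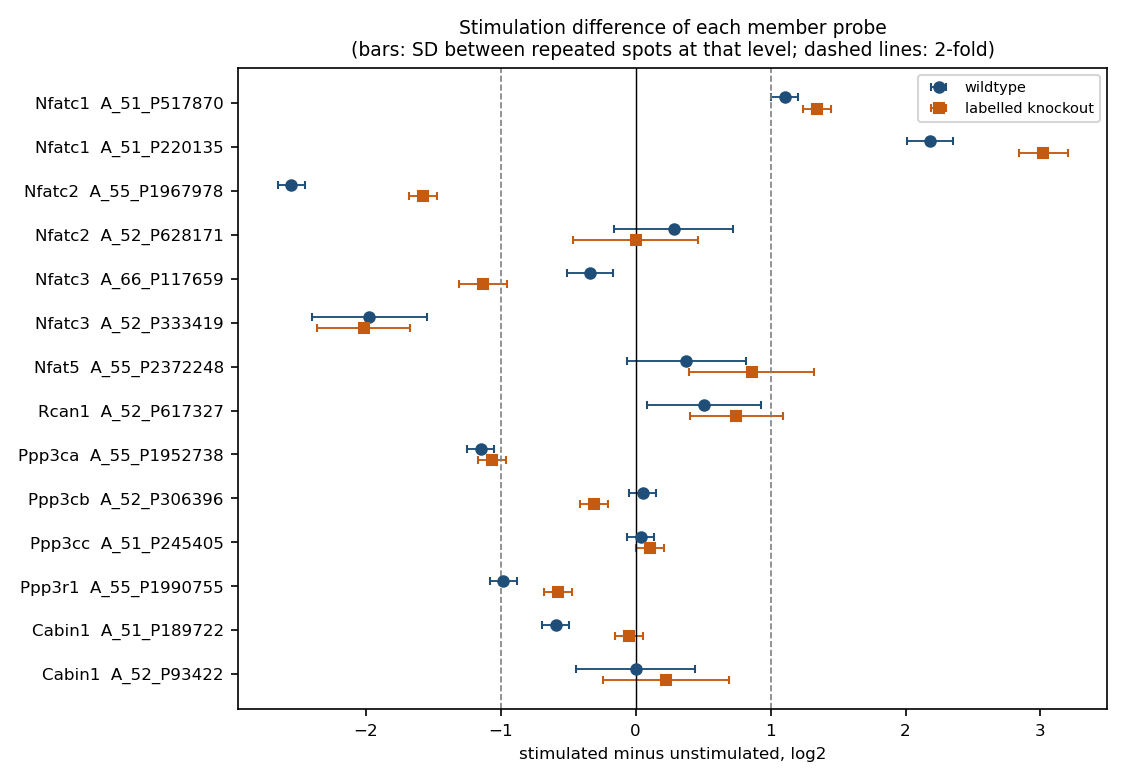
Stimulated minus unstimulated log2 difference (x axis) of the 14 member probes (y axis), for wildtype (circles) and the arrays labelled knockout (squares), with bars of 1 SD between repeated spots at that level and dashed lines at 2-fold. Nfatc1 lies to the right of 1, Nfatc2 A_55_P1967978, Nfatc3 A_52_P333419 and Ppp3ca lie to the left of -1 in both genotypes, and Ppp3cb and Ppp3cc lie near 0.

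Of the genes for the phosphatase itself, 1 catalytic gene passed 2-fold. Ppp3ca, which encodes the alpha form of the catalytic subunit, had levels of 3.14 and 1.99 in wildtype and of 2.90 and 1.84 in the arrays labelled knockout. The stimulated arrays were both lower than the unstimulated ones, by 2.22-fold in wildtype (log2 -1.15) and 2.09-fold in the arrays labelled knockout (log2 -1.06). These values stayed past 2-fold in all 9 other settings, between -1.40 and -1.05 and between -1.19 and -1.02. Before scaling, its raw signal was 2371 and 2707 in wildtype, so the wildtype direction comes from setting the signal against the brighter array. In the arrays labelled knockout, whose brightness differed less, the raw signal was 2490 and 872.5.

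Ppp3cb, the beta form of the catalytic subunit and the one that mouse T cells are known to depend on for normal development, had levels of 2.66 and 2.72 in wildtype and of 2.69 and 2.39 in the arrays labelled knockout. Its differences were 0.05 and -0.31, and the second was -2.94 spot SDs. With scaling to the median both were negative (-0.20 and -0.27). Ppp3cc, the gamma form, is best known from testis, and its probe had levels of 3.22, 3.25, 3.44 and 3.54 in the order wildtype unstimulated, wildtype stimulated, labelled knockout unstimulated and labelled knockout stimulated. Its stimulation differences of 0.04 and 0.10 were at most 1 spot SD. The 3 catalytic genes therefore differed unequally, since Ppp3ca passed 2-fold on arrays where the others moved by at most 0.31.

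Ppp3r1 encodes the B subunit, which binds calcium and is required by every form of the catalytic subunit. Its levels were 2.77 and 1.79 in wildtype and 2.56 and 1.98 in the arrays labelled knockout. Both stimulated arrays were lower, by 1.98-fold (log2 -0.98) and 1.49-fold (log2 -0.58), which is -9.82 and -5.52 spot SDs and under the 2-fold rule. The wildtype value passed it with scaling to the median (-1.23). As for Ppp3ca, the raw wildtype signal was higher after stimulation (1836 and 2351), so the wildtype direction comes from the scaling.

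Rcan1, a calcineurin inhibitor that is also a known NFAT target and so closes a feedback loop, had levels of -1.59 and -1.08 in wildtype and of -1.68 and -0.94 in the arrays labelled knockout. The stimulated arrays were higher, by 1.42-fold (log2 0.51) and 1.68-fold (log2 0.75). These steps are 1.20 and 2.16 times the spot SD at this level and stay under 2-fold. The RefSeq table lists 2 starts for mouse Rcan1, of which the internal one is known to respond to calcineurin. The probe is annotated to the transcript NM_019466, and its start among these was not settled.

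The windows of 250 bases upstream of both Rcan1 starts, and of both listed Nfatc2 starts, are shown because one is the textbook NFAT target and the other has the probe with the largest lower value in wildtype. Sequences are from RefSeq with build GRCm38.p6, on the gene's own strand. Capitals mark GGAAA, the core of the NFAT site, and TGACTCA, the AP-1 site, each on either strand.
Rcan1 internal start, chr16:92400079-92400328, minus strand: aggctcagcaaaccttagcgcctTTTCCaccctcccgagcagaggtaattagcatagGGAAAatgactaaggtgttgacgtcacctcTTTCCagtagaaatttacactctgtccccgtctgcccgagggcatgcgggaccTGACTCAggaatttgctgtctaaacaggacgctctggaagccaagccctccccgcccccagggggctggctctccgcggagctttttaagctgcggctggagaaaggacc
Rcan1 distal start, chr16:92466170-92466419, minus strand: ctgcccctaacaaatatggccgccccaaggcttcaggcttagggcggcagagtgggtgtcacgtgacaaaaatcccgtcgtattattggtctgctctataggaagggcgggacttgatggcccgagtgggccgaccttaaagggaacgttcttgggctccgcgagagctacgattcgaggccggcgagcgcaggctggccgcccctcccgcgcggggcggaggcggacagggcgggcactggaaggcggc
Nfatc2 first start, chr2:168601658-168601907, minus strand: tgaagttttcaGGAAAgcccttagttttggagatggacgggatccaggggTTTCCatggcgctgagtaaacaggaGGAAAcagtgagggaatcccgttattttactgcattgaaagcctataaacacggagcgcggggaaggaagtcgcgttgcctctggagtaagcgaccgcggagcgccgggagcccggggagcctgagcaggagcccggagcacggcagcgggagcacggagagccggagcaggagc
Nfatc2 second start, chr2:168590366-168590615, minus strand: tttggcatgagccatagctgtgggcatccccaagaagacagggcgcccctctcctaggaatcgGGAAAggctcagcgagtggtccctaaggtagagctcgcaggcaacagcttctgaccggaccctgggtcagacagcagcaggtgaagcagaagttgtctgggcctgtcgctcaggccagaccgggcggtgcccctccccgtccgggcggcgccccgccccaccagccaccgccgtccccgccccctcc

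The window at the internal Rcan1 start held 3 matches to GGAAA and 1 to TGACTCA, and the distal window held 0 of either. No matches overlap. Of all 32851 upstream windows of this length, 55.6% held at least 1 GGAAA, 6.39% held 3 or more, and 4.46% held TGACTCA. At the Nfatc2 starts the first window held 3 GGAAA and the second 1, and neither held TGACTCA. Upstream windows were examined for 7 members. Windows on chromosome 18, where Nfatc1 lies, were left out, so Nfatc1 was not examined. Ppp3ca and Ppp3cc had no window listed. The remaining counts of GGAAA were 3 for Ppp3cb, 2 for Nfat5, 1 and 0 at the Nfatc3 starts and 0 for Ppp3r1 and Cabin1. A match of letters is a description of the window, and binding was not measured.

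Cabin1 encodes a large protein that binds and inhibits calcineurin and, in the nucleus, holds MEF2 factors inactive. Its bright probe A_51_P189722 had levels of 3.13 and 2.54 in wildtype and of 2.95 and 2.90 in the arrays labelled knockout. Stimulated wildtype cells had the lowest level, with a difference of -0.59 (1.51-fold), and the arrays labelled knockout differed by -0.05. Its raw wildtype signal was 2360 and 3964, so this direction too comes from the scaling. The second probe, A_52_P93422, was at the floor in 3 arrays and at -4.79 in the stimulated array labelled knockout.

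The comparison of genotypes asks whether any of these genes depends on Med23. In unstimulated cells 0 of 10 members differed 2-fold, against a background of 3.31% higher and 1.42% lower of 14005 genes, a share near that background for a list this short. The members lay between -0.32 and 0.22, with a median of -0.09 beside -0.02 over all genes. The farthest probe was Nfatc1 A_51_P220135 at -0.60, which is -4.40 spot SDs and lower in the array labelled knockout. The other Nfatc1 probe differed by -0.04. Ppp3ca (-0.24), Ppp3r1 (-0.21) and Ppp3cc (0.22) lay at -2.44, -2.19 and 2.32 spot SDs.

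In stimulated cells 0 of 10 members differed 2-fold, against 4.98% higher and 8.13% lower of 14626 genes. Their range was -0.47 to 0.40 and their median 0.21, beside 0.09 over all genes. By gene mean Nfatc3 (-0.47) and the dim Nfat5 (0.40) lay at the ends of that range. Among single probes, 1 of Nfatc2 and 1 of Nfatc3 stood farthest from 0, on opposite sides. The bright Nfatc2 probe was 1.80-fold higher in the array labelled knockout (log2 0.85, 7.84 spot SDs), and past 2-fold with scaling to the median (1.06). The Nfatc3 probe A_66_P117659 was 1.80-fold lower there (log2 -0.85, -3.92 spot SDs), and the other Nfatc3 probe differed by -0.10. In spot SDs Cabin1 A_51_P189722 (0.36), Ppp3cb (-0.33) and Ppp3cc (0.29) followed, at 3.33, -3.04 and 2.68, and the Nfat5 probe (0.40) lay at 0.85. These comparisons use the stimulated wildtype array, on which neutrophil and red cell markers were high, and the part of those markers in them was not tested.

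The difference of the stimulation differences, labelled knockout minus wildtype, was under 2-fold for each member. It ranged from -0.42 to 0.54, with a median of 0.29 beside 0.09 over all genes, of which 7.07% were 2-fold on the positive side and 10.6% on the negative side. The bright Nfatc2 probe came nearest to the rule at 0.97, since its lower value after stimulation was smaller in the arrays labelled knockout, and it reached 1.26 with scaling to the median. Nfatc1 A_51_P220135 followed at 0.84 and reached 1.13 under that scaling. Nfatc3 A_66_P117659 was at -0.79, and Ppp3ca at 0.08 and Ppp3cc at 0.07 were within 1 spot SD of 0. The stimulation differences of Nfatc1, Nfatc3 A_52_P333419 and Ppp3ca were past 2-fold in the arrays labelled knockout as well as in wildtype. In the arrays labelled knockout the summed neutrophil and myeloid level was 1.51 without and 1.78 with stimulation, and the red cell level -0.19 and -0.10. The part of these markers in the stimulation differences of either genotype was not tested.

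**Figure D3:**
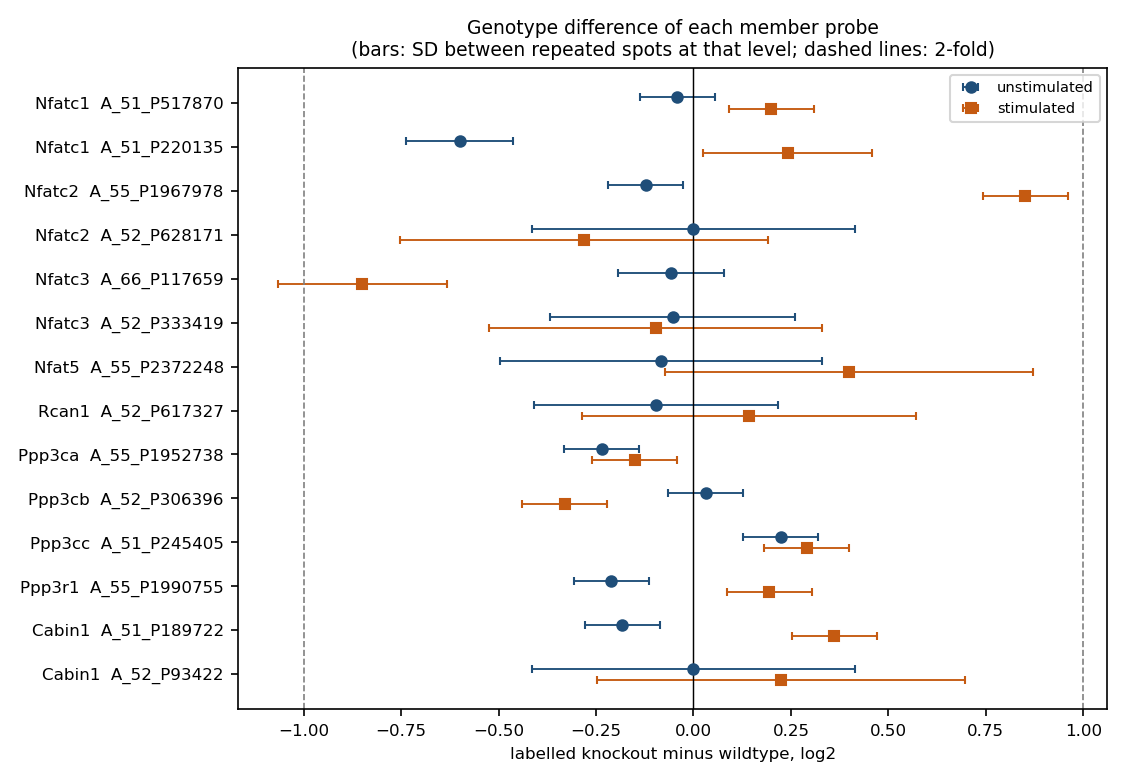
Labelled knockout minus wildtype log2 difference (x axis) of the 14 member probes (y axis), in unstimulated (circles) and stimulated arrays (squares), with bars of 1 SD between repeated spots at that level and dashed lines at 2-fold. Every probe lies between the lines. Nfatc2 A_55_P1967978 at 0.85 and Nfatc3 A_66_P117659 at -0.85 lie farthest out.

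The background share of higher against lower genes depends on the scaling. Of the genes past 2-fold in the wildtype stimulation comparison 52.6% were higher, against 36.2% with scaling to the median and 41.6% in the authors' normalized values. For the stimulated genotypes these shares were 38.0%, 59.97% and 51.8%, and for the difference of differences 39.9%, 66.9% and 52.6%. The median of all genes in the wildtype stimulation comparison was -0.02, and -0.23 and -0.18 under these alternatives. The directions of Nfatc1, Nfatc2, Nfatc3 and Ppp3ca after stimulation were the same under each of them.

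Genes around the members give the rest of the pathway. The counts of each list are to be read beside the shares of all genes, which after stimulation were 14.2% higher and 12.8% lower in wildtype and 13.5% and 13.8% in the arrays labelled knockout. Of the calcium entry and store genes 3 of 22 measured were 2-fold higher and 5 lower in wildtype (median -0.44), and 4 of 21 higher and 6 lower in the arrays labelled knockout (median -0.44). The higher count in wildtype is at the background. Orai1, the pore of the calcium channel opened when stores empty, was higher (1.62 in wildtype cells and 3.1 in the arrays labelled knockout), as were the store calcium pump Atp2a2 (1.37 and 1.43) and the store sensor Stim2 (1.36 and 1.14). The potassium channel Kcna3, which sustains calcium entry, was at 0.86 and 1.78. On the lower side stood the inositol trisphosphate receptors Itpr3 (-2.37 and -2.65) and Itpr2 (-1.82 and -1.74), Orai2 (-1.85 and -1.92), Saraf, which damps store-operated entry (-1.95 and -1.15), and the pump Atp2a3 (-1.90 and -0.93). The main store sensor Stim1 was at -0.71 in wildtype cells and -2.26 in the arrays labelled knockout.

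In that list Orai1 (1.24) and Kcna3 (1.10) were 2-fold higher, and Stim1 (-1.43) and the mitochondrial exchanger Slc8b1 (-1.06) 2-fold lower, in the stimulated array labelled knockout than in the stimulated wildtype array. That is 2 of 22 in each direction (median 0.07). Without stimulation 0 of 21 differed 2-fold (median -0.02). In the difference of differences 1 of 22 was higher (Orai1, 1.48) and 2 lower (Stim1, -1.55, and Slc8b1, -1.02), with a median of -0.07.

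Among calcineurin regulators and partners 0 of 14 measured genes were higher and 3 lower after stimulation in wildtype (median -0.50), and 0 of 13 higher and 2 lower in the arrays labelled knockout (median -0.09). The lower counts are near the background of 12.8% and 13.8%. Tbc1d10c, an inhibitor of calcineurin and of Ras in lymphocytes, was lower in both (-2.49 and -2.79). Rcan3, a relative of Rcan1, was at -1.69 and -0.98, and Nfatc2ip, a partner of Nfatc2, at -1.40 and -0.51. Calm3, 1 of the 3 calmodulin genes, was at 0.40 and -1.19, and was the 1 gene of 14 past 2-fold between the stimulated genotypes (-1.29). Nfatc4, the remaining NFAT gene, was at -1.08 between the unstimulated genotypes, the 1 gene of 13 past 2-fold there, with levels of -1.62 and -2.70. In the difference of differences Nfatc4 (1.27) and Homer3 (1.13) were higher and Calm3 (-1.60) was lower, 2 and 1 of 14. Rcan2, Akap5, Chp2 and Homer2 were at the floor on every array.

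Of the kinases that return NFAT to the cytoplasm and the export machinery 1 of 17 genes was higher and 1 lower in each genotype (medians -0.23 and 0.02), against 12.8% to 14.2% of all genes per direction. Ran, the GTPase of nuclear transport, was higher (1.16 and 1.94). Csnk1g2, a casein kinase, was lower in wildtype (-1.25), and Gsk3b, a kinase that opposes calcineurin on NFAT, in the arrays labelled knockout (-1.27). Between genotypes 0 of 17 differed 2-fold, unstimulated, stimulated or in the difference of differences (medians -0.09, 0.17 and 0.18).

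The partners of Cabin1 had 1 of 16 genes higher and 3 lower in wildtype (median -0.002) and 2 higher and 1 lower in the arrays labelled knockout (median -0.02), near the background of 12.8% to 14.2% per direction. Camk2g, a calmodulin-dependent kinase, was lower in both (-1.78 and -1.76). The histone deacetylase Hdac4 was higher in wildtype (1.22) and at -0.76 in the arrays labelled knockout, Hdac9 (-1.42) and Hdac5 (-1.06) were lower in wildtype, and Camk2d (1.38) and Mef2d (1.20) were higher in the arrays labelled knockout. Between the stimulated genotypes Hdac7 (1.28) and Camk2d (1.25) were higher and Hdac4 (-1.98) was lower, and without stimulation 0 of 16 differed 2-fold (medians 0.14 and -0.05). In the difference of differences 3 were higher, Hdac9 (1.05), Hdac7 (1.03) and Camk2d (1.03), and Hdac4 was lower (-1.99).

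Genes linked to Nfat5 and osmotic stress had 4 of 10 higher and 3 lower in wildtype (median -0.02) and 3 of each in the arrays labelled knockout (median -0.01), against 12.8% to 14.2% of all genes per direction. Slc5a3, the carrier of the osmolyte inositol, was higher (2.87 and 3.62), as was the chaperone Hspa4l (1.82 and 2.08). The kinase Sgk1 was lower (-2.31 and -2.94), as were S100a4 (-2.30 and -3.09) and Smpd2 (-1.11 and -1.34). Cyp51, a sterol synthesis enzyme with a weak claim to this list, was at 1.07 and 3.27 and higher between the stimulated genotypes (1.76). The betaine carrier Slc6a12 was at 1.53 and -0.21, with its highest level on the stimulated wildtype array, and was lower between the stimulated genotypes (-1.68). Unstimulated, 0 of 10 differed 2-fold (median 0.01). Akr1b3, aldose reductase and a standard Nfat5 target, was at 0.09 and 0.19.

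Most of the known NFAT targets of T cells were higher after stimulation in both genotypes. Of 32 measured genes 26 were 2-fold higher in wildtype (median 2.86) and 27 in the arrays labelled knockout (median 3.05), with 0 lower in either, against the 14.2% and 13.5% of all genes above. Genes at the floor without stimulation, such as Ccl3, Il3 and Il5, enter these medians at the floor. The largest were the chemokine Ccl4 (6.32 and 8.45), Xcl1 (6.09 and 6.72), Il17a (6.00 and 6.20) and, in wildtype, the transcription factor Irf4 (4.47). Tox (-0.41 and -0.09) and Rnf128 (-0.62 and -0.004), which mark exhausted and anergic T cells, were within 2-fold, as was Cblb (0.28 and 0.82). Pdcd1 (2.74 and 3.04) and the dim Havcr2 (1.22 and 1.06), also of this list, were 2-fold higher in both genotypes. Exhaustion and anergy were not tested. Ctla4 passed 2-fold in wildtype only (1.66 and 0.92) and Lag3 in the arrays labelled knockout only (0.35 and 2.17). The list was drawn up with earlier results of these arrays known, so its direction is a description.

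Between the stimulated genotypes 12 of these 32 genes were 2-fold higher in the array labelled knockout and 0 lower (median 0.57), against 4.98% and 8.13% of all genes. The largest were Ifng (2.60), Ccl4 (2.24), Ptgs2 (2.24) and Il4 (2.18). Il4 was also 2-fold higher without stimulation (2.85), where Gzmb was lower (-1.41) and 1 of 27 genes passed the rule in each direction (median 0.11). In the difference of differences 8 of 32 were higher and 0 lower (median 0.57), led by Ifng (2.76), Ptgs2 (2.24), Ccl4 (2.13) and Lag3 (1.83). The 12 became 8 to 13 in the other settings, and the 8 became 6 to 13. By gene mean none of the NFAT factors or calcineurin genes passed 2-fold in the stimulated pair of arrays. The bright Nfatc2 probe was at 0.85 there, and at 1.06 with scaling to the median. That pair includes the stimulated wildtype array with its high neutrophil and red cell markers, whose part was not tested.

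**Figure D4:**
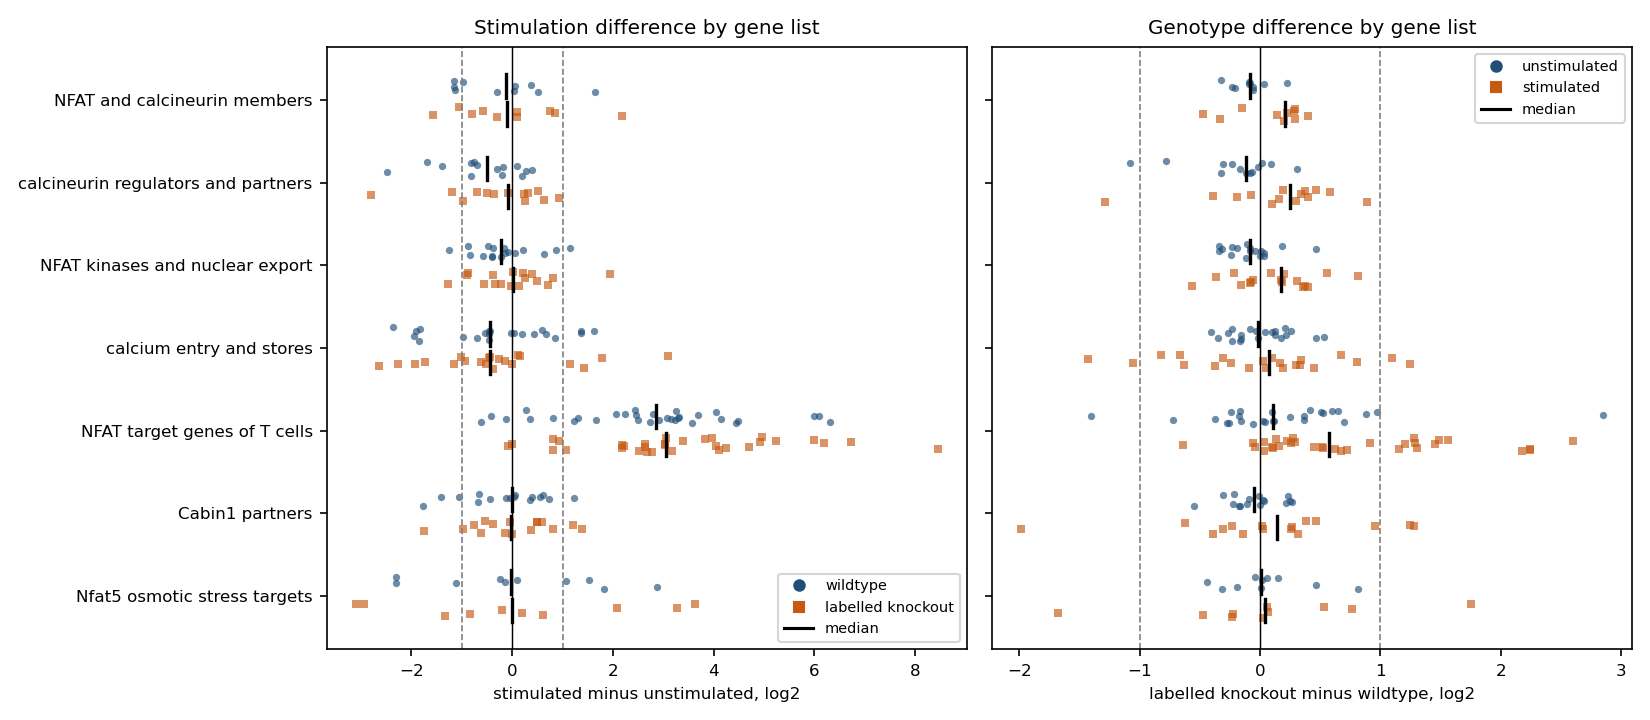
Log2 difference (x axis) of each measured gene in the members and the 6 pathway lists (y axis), for stimulation (left, wildtype circles and labelled knockout squares) and for genotype (right, unstimulated circles and stimulated squares), with a black bar at each median and dashed lines at 2-fold. NFAT target genes lie mostly to the right of 1 on the left side, with medians of 2.86 and 3.05, and the members lie around 0, with medians of -0.13 and -0.11.

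The genes whose pattern over the 4 arrays was most like that of a member were found by Euclidean distance between log2 profiles, each centred on its own mean, among 12213 other genes above the floor on every array. For Nfatc1 these were Nkrf (distance 0.06), Mif (0.14) and Nle1 (0.14), with stimulation differences of 1.70, 1.55 and 1.59 in wildtype. For Nfatc3 they were Ttll1 (0.08), H2bc1 (0.09) and Bnip3l (0.09). For Ppp3ca they were Cyhr1 (0.05), Prkdc (0.06) and Hsdl1 (0.07), and for the probe mean of Nfatc2, which the floor damps, Lrrc8c (0.03), Mccc1 (0.04) and Il17rc (0.05). The member nearest to Nfatc3 was Ppp3ca, at place 274, and the member nearest to Nfatc1 was Rcan1, at place 1894. Nearest to the probe mean of Nfatc2 was Ppp3r1, at place 202, and nearest to Ppp3ca was Nfatc2, at place 466.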

How the data were processed

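Expression was measured in 4 samples, 1 per group, on single-colour Agilent arrays. The authors deposited 1 linear intensity per spot, extracted with Agilent Feature Extraction 10.7.3.1 per the submitters' processing notes. Brightness differed between arrays, so these were scaled here. The authors' second table holds log2 values for 17878 probes, normalized in GeneSpring GX 11.5.1 per the file headers, and correlated with the log2 raw signals at 0.9999 on each array. Normalization method, probe filter and genome build: not given in the sources used here.

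Repeated spots were combined as the mean log2 signal, the 75th percentile over the 39429 non-control probes was subtracted per array, and values below the median of the arrays' 40th percentiles were set to that floor. Probes were named by RefSeq accession, without version, through a gene table of GRCm38.p6 (26293 probes named, of which those of a gene were averaged). A gene counts as measured when 1 or more of the compared arrays exceed the floor. Calls use a 2-fold rule and no test, as each group had 1 array, which limits the precision of every value. Named were all members, and from each pathway list at most 4 genes per direction past 2-fold with the largest difference and probes of 1 sign. Genes named beyond that rule were chosen after their values were seen. The members and all lists were chosen with earlier results of these data known. The script was tested on simulated data. Python 3.11.15, numpy 2.4.6 and pandas 2.3.3 were used. The 9 alternatives were scaling to the median, quantile normalization, the authors' values, a floor at the 20th or the 60th percentile, a pseudocount of 32 in place of the floor, each gene's brightest probe, the median over probes and the median of spots.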

Additional observations from a re-analysis of the deposited data

Results flagged for a closer look

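Some members differed in opposite directions in the 2 genotypes or in the 2 states, a difference that rests on 1 array per group and was not tested. After stimulation the Ppp3cb probe differed by 0.054 in wildtype and by -0.31 in the arrays labelled knockout. With scaling to the median these were -0.20 and -0.27, of 1 sign. Between the genotypes 8 probes had 1 sign without stimulation and the other with it. All but that of Ppp3cb went from negative to positive, as did the median of all genes (-0.02 and 0.09). With scaling to the median, that all-gene median was -0.10 and 0.28. Nfatc1 A_51_P517870 differed by -0.042 and 0.20, Nfatc1 A_51_P220135 by -0.60 and 0.24, and Nfatc2 A_55_P1967978 by -0.12 and 0.85. The dim Nfat5 probe differed by -0.083 and 0.40 and that of Rcan1 by -0.10 and 0.14. Ppp3cb differed by 0.031 and -0.33, and by -0.051 and -0.12 with scaling to the median, again of 1 sign. Ppp3r1 differed by -0.21 and 0.19, and Cabin1 A_51_P189722 by -0.18 and 0.36. Each of these values is under 2-fold, and those of Rcan1 and Nfat5 are within 1 spot SD. So are the unstimulated genotype values of Nfatc1 A_51_P517870 (-0.43 spot SDs) and Ppp3cb (0.32), and the wildtype stimulation value of Ppp3cb (0.54).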

How the results depend on the processing

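The counts of members past 2-fold stayed within 1.5 times under each of the 9 alternatives for every comparison, with 1 exception: in the difference of differences 1 member (Nfat5, 1.01) was on the higher side with a pseudocount of 32 added, against 0. No member value past 2-fold changed sign. Gene values that crossed the rule were those of Nfatc2 (wildtype -0.94 and labelled knockout -1.19 with the floor at the 20th percentile, labelled knockout -1.58 with the brightest probe and -1.74 in the authors' values), Nfatc3 and Ppp3r1 as given above. The cause was not tested, except that the brightest probe and the authors' table leave out the Nfatc2 probe at the floor. Of all counts over members and lists 70 moved by over 1.5 times and 560 did not. Over the alternatives, genes past 2-fold in the wildtype stimulation comparison numbered 1196 to 2746 higher (2079 as reported) and 1303 to 6706 lower (1870). They numbered 1395 to 2417 (1917) and 1155 to 2324 (1962) in the arrays labelled knockout. Between genotypes they numbered 137 to 779 (463) and 54 to 531 (199) without stimulation, and 368 to 6489 (729) and 468 to 1739 (1189) with it. In the difference of differences they numbered 621 to 7810 (1076) and 580 to 2303 (1619). The extremes 6706, 6489 and 7810 came with the pseudocount, where the all-gene medians were -0.67, 0.63 and 0.73. No paired analysis was possible because each group has 1 array and the labels carry no replicate numbers. Signal over background limits Nfat5 and the dim probes of Nfatc2 and Cabin1.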

Other observations

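Nfatc1 is the master factor of osteoclasts, and 5 genes tied to it there were read as markers of such cells. Acp5, the acid phosphatase of osteoclasts that is also present in some lymphocytes, had levels of 5.98 and 3.14 in the unstimulated and stimulated wildtype arrays and of 5.47 and 2.06 in the arrays labelled knockout, so it was lower after stimulation in each genotype (-2.85 and -3.41) while Nfatc1 was higher. Ctsk was also 2-fold lower in wildtype (-1.37) and differed by -0.60 in the arrays labelled knockout. Oscar differed by -0.32 and 0.13, Calcr was at the floor on every array, and Dcstamp was at the floor on all but the stimulated array labelled knockout (-4.97).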
